A study of Mus musculus with 8 samples.

Results

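The comparison described here sets siRNAs against the muscleblind genes Mbnl1 and Mbnl2 (siMbnl1/2) beside a mimic of the microRNA miR-294, both transfected into mouse embryonic stem cells that lack Dgcr8. Its members are the genes with a mean of at least 1 FPKM (sequenced fragments divided by transcript length in kilobases and by the library's mapped total) over the 2 siMbnl1/2 and the 2 miR-294 libraries, which were 12811 of the 49641 gene entries of the table. Of the others, 13542 lay above 0 and below that level and 23288 were listed at 0 in all 4 libraries. Fxyd4, at a mean of 1.00 FPKM, lay just inside the level and Gm6658, at 0.999, just outside. Every difference below is the mean log2(FPKM + 1) with siMbnl1/2 minus that with miR-294, so a positive value means a higher level with the siRNAs, and 1 on this scale is a 2-fold difference for an abundant gene and more than 2-fold for a scarce one.

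The study measured RNA in 8 libraries of embryonic stem cells of the 129/C57BL/6 background, labelled as the line V6.5, with 2 libraries each for wild-type (WT) cells, Dgcr8 knockout (KO) cells, Dgcr8 KO cells given miR-294 and Dgcr8 KO cells given siMbnl1/2. Mimic or siRNA was added at 50 nM with the lipid reagent DharmaFECT1, 16 hours after plating. The columns of WT and Dgcr8 KO cells are named as mock transfections, and what the mock held is not given. No group is labelled as given a non-targeting small RNA. Both arms of the comparison may thus differ from their mock in having been given a small RNA at all. Culture was in medium with serum and LIF, either on gelatin or on feeders made of irradiated embryonic fibroblasts, and which surface served which library is not given. Both groups compared carry the Dgcr8 deletion and make no canonical microRNA of their own. The miR-294 cells thus have miR-294 as their only canonical microRNA, and the siMbnl1/2 cells have none of this class. Levels of mature microRNAs, canonical or other, are not given. The siRNA sequences are not given, and nothing states that the 2 libraries of a group came from separate cultures, so every p-value speaks only of the spread among these libraries, which may be technical.

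Dgcr8 is the RNA-binding partner of the nuclease Drosha, which cuts primary microRNA transcripts in the nucleus. miR-294 is a member of a family named after miR-290, abundant in mouse embryonic stem cells, whose members share related seeds and are known to lower inhibitors of the G1/S transition of the cell cycle. A microRNA in an Argonaute protein pairs through its seed with sites that lie mostly in 3′ untranslated regions (UTRs) and lowers the level or translation of those mRNAs. Muscleblind-like proteins bind RNA and direct alternative splicing and mRNA localisation, and they are known to repress exons typical of embryonic stem cells. Gene-level FPKM does not show splicing, so the values below are levels of whole genes.

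The mature sequence of the transfected microRNA and those of its family members with the same seed are shown because the 3′ UTR matches counted below derive from this seed. They were read from RefSeq (GRCm38.p6), where miR-294-3p lies on chromosome 7, 3220691 to 3220712, plus strand, and the capitals mark bases 2 to 8, the seed.
miR-294-3p: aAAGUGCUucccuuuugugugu
miR-291a-3p: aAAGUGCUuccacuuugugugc
miR-295-3p: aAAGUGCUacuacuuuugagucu

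Between the groups compared, 6944 of the 12811 genes were called at an adjusted p under 0.05 in a limma fit (54.2%), of which 4245 were higher with siMbnl1/2 (33.1% of those tested) and 2699 lower (21.1%). Larger differences leaned the same way, with 839 called genes at least 2-fold higher (6.55%) and 285 at least 2-fold lower (2.22%). The largest decreases exceeded the largest increases in size: Lin28a differed by -4.54, Calca by -4.12 and Myc by -3.28, while Zbp1, at 2.98, differed most among the increases that the naming rule admits. The direction of a difference went with abundance. Of the 768 genes with a mean of at least 100 FPKM, 54.9% were lower with siMbnl1/2 and 13.9% higher, and of the 3827 genes between 1 and 5 FPKM, 11.5% were lower and 1341 were higher. The counts of list members below are to be read against 33.1% higher and 21.1% lower, and a list near these shares is no result about the list. A value after ± is the standard error of the difference in the limma fit. It rests on an estimate of spread shared by all 8 libraries and is not the SD of a pair.

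**Figure D1:**
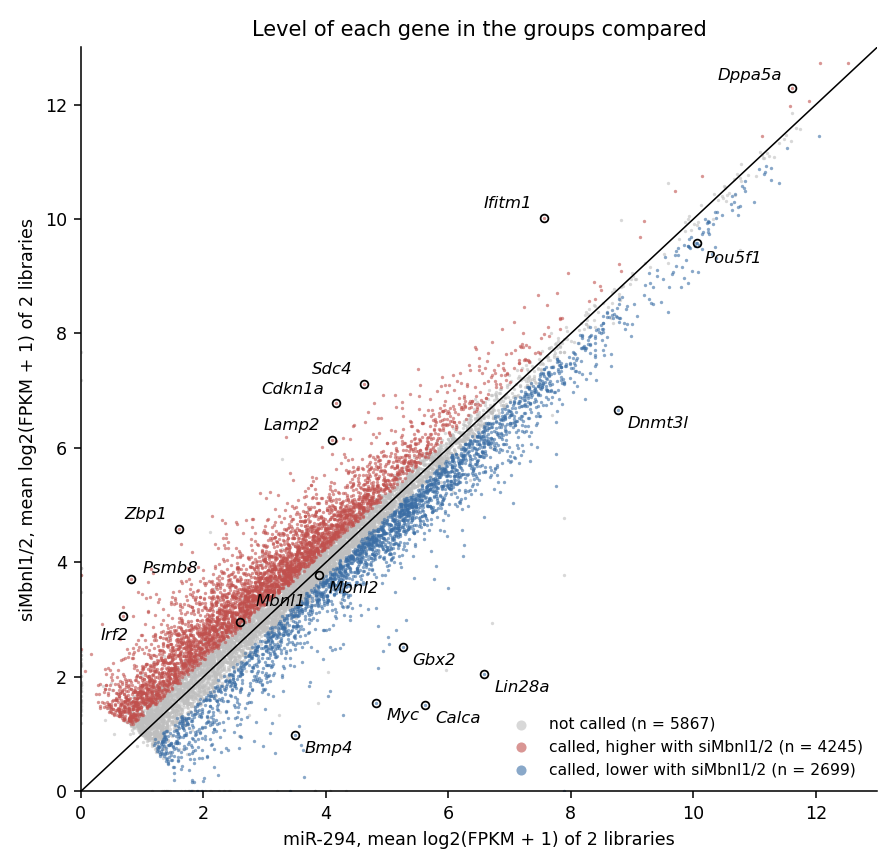
Mean log2(FPKM + 1) of each of the 12811 genes with miR-294 (horizontal) and with siMbnl1/2 (vertical), with called genes in colour and the line of equal levels in black. Lin28a, Calca, Myc, Gbx2 and Bmp4 lie far below the line, Zbp1, Psmb8, Irf2, Cdkn1a, Sdc4 and Ifitm1 far above it, and Mbnl2 lies close to it.

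These shares depend on how the libraries are scaled. The median difference over all genes was 0.10 with FPKM as deposited, and it moved to -0.0061 with median-of-ratios scaling and to -0.024 with quantile normalization. With those scalings 3398 and 3181 genes were called higher against 3551 and 3425 lower, which is 48.9% and 48.2% of calls against 61.1% in the deposited scale. Leaving out a miR-294 library lowered the number of calls to 4848 or 4828, and without miR-294 replicate 2 the lower calls fell to 1768. The spread was larger in the siMbnl1/2 pair, whose libraries had a median SD of 0.12 on the log2 scale against 0.049 for the miR-294 pair. The FPKM of the 8 libraries summed to between 473746 and 571508, between 12386 and 12860 genes per library reached 1 FPKM, and the number of reads behind a value is unknown.

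Markers fixed for the cell types the cultures could hold were read in the 4 libraries. All 9 embryonic stem cell markers were above 1 FPKM, with summed levels of 5947 and 6084 FPKM with miR-294 and 7517 and 7513 with siMbnl1/2. Dppa5a made up the largest part of these sums, at 3076.5 and 3165 FPKM with miR-294 and 5097 and 4973 with siMbnl1/2. The markers did not move together: Pou5f1, Zfp42, Utf1 and Tdgf1 were lower with siMbnl1/2, and Dppa5a, Nanog, Sox2, Esrrb and Klf4 were higher. Of 16 feeder fibroblast markers, 3 reached a mean of 1 FPKM (Thy1, Mmp2 and Loxl1). Postn and Fap were listed at 0 in all 4 libraries, and the collagen genes Col1a1, Col1a2 and Col3a1 did not exceed 0.215 FPKM. The summed level of the fibroblast markers was 10.2 and 9.91 FPKM with miR-294 and 8.93 and 12.4 with siMbnl1/2, so the groups overlapped. The part of feeder RNA in the results was not tested beyond these values.

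Mbnl1 (ENSMUSG00000027763.13; mm10 chromosome 3, 60472830 to 60629750, plus strand), a target of the siRNAs, stood at 5.17 and 4.92 FPKM with miR-294 and 6.84 and 6.76 with siMbnl1/2. In mock-transfected Dgcr8 KO cells it was at 8.003 and 9.42 FPKM and in WT at 4.799 and 5.12. The siMbnl1/2 libraries were thus below the KO libraries and above the miR-294 libraries, by 0.37 ± 0.10 (adjusted p = 0.0163). This call was lost with median-of-ratios scaling (adjusted p = 0.0779), with quantile normalization (adjusted p = 0.454) and without either miR-294 replicate (adjusted p = 0.0602 and 0.0937). Mbnl2 (ENSMUSG00000022139.16; mm10 chromosome 14, 120275669 to 120431697, plus strand) stood at 13.2 and 14.4 FPKM with miR-294 and 11.2 and 14.3 with siMbnl1/2, against 24.7 and 28.6 in Dgcr8 KO and 12.8 and 12.9 in WT. Its groups overlapped and differed by -0.11 ± 0.12 (adjusted p = 0.464). Both muscleblind mRNAs stood below the mock KO libraries in all 4 transfected libraries, with the mimic as with the siRNAs. In the list of muscleblind and Celf genes 3 rose and 1 fell of 6 tested, or 0 and 1 with quantile normalization. Mbnl3 was below the 1 FPKM level, at 0.608 and 0.806 FPKM with miR-294 and 0.644 and 0.628 with siMbnl1/2. Dgcr8, the deleted gene, was at 6.81 and 7.28 FPKM with miR-294 and 7.896 and 6.58 with siMbnl1/2, a difference of 0.031 ± 0.10 (adjusted p = 0.816), against 22.9 and 21.9 in WT.

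Matches to the miR-294 seed were counted in the 3′ UTR of 1 annotated transcript per gene, and other transcripts were not read. By this count the 3′ UTR of Mbnl1 holds none, and that of Mbnl2 holds 1 match. It is shown as 29 bases of the transcript, as are the matches in some genes that were much higher with siMbnl1/2. They were read 5′ to 3′ from GENCODE M21 on mm10, with capitals marking AGCACTT, the reverse complement of the seed. Genes that were lower can hold a match too: Lef1 holds 1, which is not printed here. The Mbnl2 site lies on chromosome 14, 120431481 to 120431509, those of Cdkn1a on chromosome 17, 29099817 to 29099845 and 29100489 to 29100517, those of Lats2 on chromosome 14, 57691076 to 57691104 and 57690977 to 57691005, that of Irf2 on chromosome 8, 46846653 to 46846681, those of Lefty1 and Lefty2 on chromosome 1, 180938202 to 180938230 and 180897906 to 180897934, that of Lamp2 on chromosome X, 38420715 to 38420743, and that of Oasl2 on chromosome 5, 114911511 to 114911539. A match describes letters only and is not shown here to be a bound site.
Mbnl2: caggctataacAGCACTTcacagaactat
Cdkn1a, first match: cagacctgaatAGCACTTtggaaaaatga
Cdkn1a, second match: gtgggtgtcaaAGCACTTagtgggtctga
Lats2, first match: agtatggaaagAGCACTTattttgtggat
Lats2, second match: ttgtatctgatAGCACTTgtccacagcta
Irf2: ccttatcttgaAGCACTTacaataggcct
Lefty1: actgtatgcgaAGCACTTacatgtataga
Lefty2: cacccagtttaAGCACTTacatgggtaaa
Lamp2: ttgactgctacAGCACTTactaatttggc
Oasl2: gcctttatctcAGCACTTagagaatttct

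Genes known from other work as targets of the miR-290 family and its relatives were higher with siMbnl1/2: 16 of 17 tested rose and none fell, with a median difference of 1.07 against 0.10 over all genes. Cdkn1a (ENSMUSG00000023067.13; mm10 chromosome 17, 29090979 to 29100722, plus strand), which encodes the CDK inhibitor p21, stood at 17.8 and 16.1 FPKM with miR-294 and 112 and 106 with siMbnl1/2, a difference of 2.62 ± 0.085 (adjusted p = 6.35e-06). Mock KO cells lay between them, at 64.4 and 57.1 FPKM, and WT at 25.9 and 24.9. Irf2, a transcription factor of the interferon system, stood at 0.623 and 0.614 FPKM with miR-294 and 7.93 and 6.74 with siMbnl1/2 (difference 2.36 ± 0.15, adjusted p = 4.23e-05). It was at 9.76 and 9.02 in mock KO cells, so the siRNA libraries lay near the mock and the mimic libraries near WT (0.133 and 0.517). The Hippo kinase gene Lats2 was at 2.98 and 2.74 FPKM with miR-294 and 12.5 and 10.97 with siMbnl1/2 (1.72 ± 0.10, adjusted p = 3.51e-05), with 10.1 and 9.38 in mock KO. Lefty2, an inhibitor of Nodal signalling, was at 5.31 and 5.28 FPKM with miR-294 and 28.5 and 16.9 with siMbnl1/2 (1.87 ± 0.20, adjusted p = 0.000283). Its siMbnl1/2 libraries differed widely from each other and still lay above both miR-294 libraries. Lefty1 was at 24.96 and 22.8 FPKM with miR-294 and 80.5 and 93.3 with siMbnl1/2 (1.82 ± 0.14, adjusted p = 6.60e-05). Rbl2, a pocket protein gene related to Rb1, was at 2.36 and 2.34 FPKM with miR-294 and 6.73 and 6.67 with siMbnl1/2 (adjusted p = 0.000238). The difference was 1.18 ± 0.14 for the TGF-beta receptor gene Tgfbr2, 1.08 ± 0.12 for the methyl-CpG binding protein gene Mbd2, 1.07 ± 0.087 for the caspase gene Casp2 and 1.01 ± 0.068 for Ei24. Akt1, which encodes a kinase of insulin and growth factor signalling, differed by 0.90 ± 0.14. Smaller differences, between 0.31 and 0.36, were called for Fbxl5, Rela, Wee1, Rhoc and Arid4b. Dkk1, also on the list, was below the level tested. These genes were listed with earlier results of these data known.

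Over all genes, those with a seed match were shifted towards higher levels with siMbnl1/2. Among 11465 tested genes with a 3′ UTR in GENCODE M21, 15.9% held at least 1 AGCACTT. The median difference was 0.088 for 9646 genes with no match, 0.27 for 1489 genes with 1 match and 0.32 for 330 genes with 2 or more. For 378 genes with a match followed by A, the longer form of the site, it was 0.44, and 58.2% of them were called higher. Of the 796 genes at least 2-fold higher that have a 3′ UTR, 25.3% held a match, and of the 242 at least 2-fold lower, 5.37% did. Long UTRs hold more matches to any short sequence, so the same counts were made for other seeds and within classes of UTR length. Genes with a match to the seed of let-7 had a median of 0.14, of miR-26 0.18 and of miR-206 0.19, and these too exceeded the median of genes without. In the class of shortest UTRs (up to 559 bases) the median was 0.020 with no miR-294 match and 0.21 with 1 or more, in the middle class 0.11 and 0.29, and in the class of longest UTRs (over 1564 bases) 0.15 and 0.27. In that longest class, genes with and without a miR-206 match had medians of 0.19 and 0.18, and those with and without a let-7 match 0.15 and 0.19. With 2 or more matches in that class the median was 0.28 for miR-294 (297 genes), 0.29 for miR-206 (120 genes) and 0.12 for let-7 (116 genes). At that number of matches miR-294 thus did not exceed miR-206. A position within the 3′ UTR, other sites and other regions of the mRNA were not examined.

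**Figure D2:**
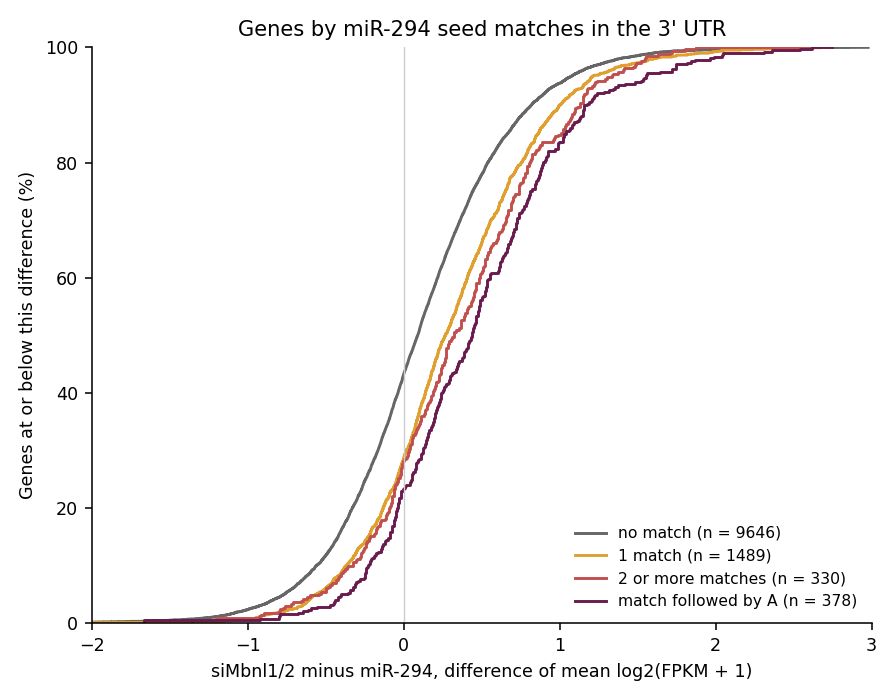
Share of genes (vertical, in percent) at or below a given difference of siMbnl1/2 minus miR-294 (horizontal), for genes with no match, 1 match, 2 or more matches and a match followed by A in the 3′ UTR. The curve without a match lies furthest to the left and that of the match followed by A furthest to the right, with medians of 0.088 and 0.44.

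Genes that hold back the cell cycle were higher with siMbnl1/2: 16 of 17 rose and 1 fell, with a median of 1.05. The list shares Cdkn1a, Lats2, Rbl2 and Wee1 with the targets above. Rb1, the retinoblastoma gene, stood at 5.36 and 4.49 FPKM with miR-294 and 14.5 and 13.7 with siMbnl1/2 (1.35 ± 0.10, adjusted p = 6.72e-05). The CDK inhibitor genes Cdkn1b, Cdkn2b, Cdkn2c, Cdkn2a and Cdkn2d differed by 1.05, 1.11, 1.05, 0.90 and 0.79, and the antiproliferative genes Btg1, Tob1 and Btg2 by 1.12, 1.07 and 0.71. The exception was the imprinted CDK inhibitor gene Cdkn1c, which fell, at 14.6 and 14.2 FPKM with miR-294 and 5.51 and 6.67 with siMbnl1/2 (-1.12 ± 0.10, adjusted p = 0.000132). Cyclin E1 is the cyclin that drives entry into S phase, and its gene Ccne1 stood at 109 and 104 FPKM with miR-294 and 39.2 and 36.3 with siMbnl1/2 (-1.47 ± 0.067, adjusted p = 1.73e-05), with the 4 values well apart. E2f4 was at 86.7 and 88.3 FPKM with miR-294 and 43.9 and 42.9 with siMbnl1/2 (-0.996 ± 0.069, adjusted p = 5.04e-05). Of the 20 G1/S cyclins, kinases and E2F genes, 6 rose and 6 fell. With median-of-ratios scaling 3 rose and 9 fell, without either miR-294 replicate the counts were 2 and 4, and without siMbnl1/2 replicate 2 they were 3 and 6. Among 33 genes of the DNA replication machinery 22 fell and 2 rose (median -0.36). Mcm5, a subunit of the replicative helicase, stood at 175 and 168 FPKM with miR-294 and 93.4 and 92.7 with siMbnl1/2 (-0.88 ± 0.068), Mcm10 differed by -1.08 ± 0.11 and the origin recognition gene Orc1 by -0.76 ± 0.079. Histone genes whose transcripts lack a poly(A) tail were mostly below the level tested, with 21 of 70 entering and 7 of those falling, or 4 without miR-294 replicate 1 and 3 without replicate 2.

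Targets of p53, the tumour suppressor that arrests damaged cells, rose in 13 of 22 cases and fell in 3, with a median of 0.48. Besides Cdkn1a, Rrm2b, a ribonucleotide reductase subunit gene with 1 seed match, was at 2.18 and 2.38 FPKM with miR-294 and 10.4 and 13.4 with siMbnl1/2 (1.96 ± 0.13, adjusted p = 4.23e-05), and the stress gene Gadd45b at 13.2 and 12.02 FPKM with miR-294 and 38.9 and 41.3 with siMbnl1/2 (1.598 ± 0.084). Gadd45a differed in the other direction (-0.71 ± 0.067, adjusted p = 0.000154). Within the apoptosis genes, 11 of 23 rose and 3 fell. The first number dropped to 5 without miR-294 replicate 2 and to 6 with median-of-ratios scaling. Pmaip1, which encodes the death-promoting protein Noxa, was at 26.8 and 29.8 FPKM with miR-294 and 98.6 and 57.8 with siMbnl1/2 (1.39 ± 0.22, adjusted p = 0.00159), and its siMbnl1/2 libraries lay apart from each other but above both miR-294 libraries. Hrk, another death promoter, differed in the other direction, at 2.31 and 2.49 FPKM with miR-294 and 0.268 and 0.312 with siMbnl1/2 (-1.398 ± 0.11, adjusted p = 6.44e-05).

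The interferon and antigen presentation genes were among the most changed. Of 18 interferon-stimulated genes tested, 14 rose and 1 fell, with a median of 0.996. Zbp1, a sensor of double-stranded nucleic acid, stood at 2.17 and 1.93 FPKM with miR-294 and 23.9 and 22.2 with siMbnl1/2 (2.98 ± 0.10, adjusted p = 9.43e-06). Mock KO cells had 17.7 and 15.5 FPKM and WT cells 0.141 and 0.0921, so the gene was below 1 FPKM only in WT. Oasl2, of the oligoadenylate synthetase family, was at 1.42 and 1.01 FPKM with miR-294 and 11.96 and 15.8 with siMbnl1/2 (2.74 ± 0.17), and the guanylate-binding protein gene Gbp2 at 0.928 and 0.872 FPKM with miR-294 and 11.7 and 8.896 with siMbnl1/2 (2.56 ± 0.13). The member that fell was Ddx58, which encodes the RNA sensor RIG-I, at 29.98 and 31.4 FPKM with miR-294 and 15.8 and 14.3 with siMbnl1/2 (-0.98 ± 0.082, adjusted p = 9.08e-05). Genes of MHC class I and of the loading of peptides onto it rose in 13 of 16 cases (median 0.98) and fell in none. Psmb8, a subunit of the immunoproteasome, stood at 0.492 and 1.09 FPKM with miR-294 and 12.8 and 11.5 with siMbnl1/2 (2.896 ± 0.18), against 11.1 and 8.78 in mock KO. The peptide-trimming enzyme gene Erap1, with 1 seed match, was at 1.17 and 1.004 FPKM with miR-294 and 10.2 and 8.64 with siMbnl1/2 (2.31 ± 0.12, adjusted p = 2.39e-05), and Tapbp, which encodes the chaperone tapasin, at 15.2 and 13.5 FPKM with miR-294 and 59.2 and 69.4 with siMbnl1/2 (2.08 ± 0.11). The class I genes themselves differed less, H2-K1 by 0.38 ± 0.12 and H2-D1 by 0.52 ± 0.13, and the light chain gene B2m by 0.87 ± 0.13. In the list of innate RNA sensing and NF-kB genes, 15 of 20 rose and 1 fell, among them Irf1 at 13.2 and 11.1 FPKM with miR-294 and 38.3 and 38.9 with siMbnl1/2 (1.59 ± 0.11, adjusted p = 4.52e-05). The interferon-induced transmembrane gene Ifitm1 was at 183 and 191 FPKM with miR-294 and 937 and 1148 with siMbnl1/2 (2.46 ± 0.15, adjusted p = 3.66e-05), with 926 and 684 in mock KO and 58.3 and 61.6 in WT. Ifitm3 was at 242 and 249 FPKM with miR-294 and 547 and 522 with siMbnl1/2 (1.12 ± 0.069), and 3 of 5 genes of this family were called, all higher. The mock KO cells have no small RNA listed in their labels. Their levels were near those of the siMbnl1/2 cells for Psmb8, Tapbp (63.7 and 62.3 FPKM), Erap1 (10.3 and 11.8) and Irf1 (35.9 and 32.8). For these genes the miR-294 libraries lay below both groups. Zbp1, Gbp2 (5.82 and 5.34 FPKM in mock KO) and Oasl2 (11.4 and 10.004) were higher in both siMbnl1/2 libraries than in either mock KO library. So, by less, were Psmb8, Irf1 and Ifitm1. Erap1 and Ifitm3 (616 and 549 FPKM in mock KO) were lower in both siMbnl1/2 libraries than in either mock KO library. The share of all genes so separated from mock KO was not counted, so these orders are no result about the genes.

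Lin28a (ENSMUSG00000050966.9; mm10 chromosome 4, 134003330 to 134018841, minus strand), the RNA-binding protein gene that blocks maturation of let-7 microRNAs, had the largest difference among the named genes. It stood at 94.1 and 96.3 FPKM with miR-294 and 3.57 and 2.75 with siMbnl1/2, a difference of -4.54 ± 0.11 (adjusted p = 1.91e-06). Mock KO cells had 4.73 and 5.52 and WT 106 and 112 FPKM, so the level was high where the microRNA family or the mimic was present and low in the other 4 libraries. Myc was at 26.7 and 28.1 FPKM with miR-294 and 2.61 and 1.37 with siMbnl1/2 (-3.28 ± 0.19, adjusted p = 3.17e-05), with 1.99 and 2.53 in mock KO and 32.8 and 33.3 in WT. Its relatives Mycl and Mycn differed by -1.04 ± 0.13 and -0.57 ± 0.071, while Mxd3 and Mxd4, which encode antagonists of Myc, differed by 1.09 ± 0.20 and 1.04 ± 0.12. In the Myc, Max and Mxd list, 5 rose and 6 fell of 13. These counts were 3 and 3 without miR-294 replicate 1. Among the genes of Lin28 and of let-7 targets, 6 rose and 6 fell of 16. Neither Lin28a nor Myc holds a match to the miR-294 seed in the 3′ UTR of the transcript read. In a bulk sample fewer cells with a gene and less of its RNA per cell cannot be told apart.

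The factors of the pluripotency network did not move as a group: 9 of 28 rose and 12 fell. Pou5f1 fell from 1060.2 and 1078 FPKM with miR-294 to 723 and 801 with siMbnl1/2 (-0.49 ± 0.084, adjusted p = 0.00222). Nanog went the other way, from 215 and 223 to 412 and 419 (0.92 ± 0.054, adjusted p = 3.51e-05), as did Dppa5a, from 3076 and 3165 to 5097 and 4973 (0.69 ± 0.062). The homeobox gene Gbx2 was at 35.8 and 38.5 FPKM with miR-294 and 6.25 and 3.55 with siMbnl1/2 (-2.73 ± 0.19, adjusted p = 5.41e-05), and the nuclear receptor genes Nr0b1 and Nr5a2 were lower by -1.27 ± 0.063 and -1.21 ± 0.077. Genes of the primed epiblast, the later pluripotent state, fell in 9 of 15 cases and rose in 5 (median -0.59). With a mean of at least 5 FPKM 4 fell and 4 rose, with a median of -0.35. The Wnt effector gene Lef1, with 1 seed match, was at 6.95 and 6.73 FPKM with miR-294 and 0.828 and 0.625 with siMbnl1/2 (-2.19 ± 0.17, adjusted p = 7.04e-05). With 0.323 and 0.768 in mock KO and 0.831 and 1.23 in WT, the miR-294 libraries were the highest of the 8. Dnmt3b was at 79.3 and 78.9 FPKM with miR-294 and 33.7 and 27.99 with siMbnl1/2 (-1.34 ± 0.090). Otx2 and Cdh2 differed in the opposite direction, by 0.75 ± 0.087 and 0.73 ± 0.10. Of the lineage lists, 4 of 6 tested endoderm genes, 5 of 11 trophoblast genes, 4 of 9 neuroectoderm genes and 1 of 4 mesoderm genes rose, and 1, 2, 2 and 2 fell. The trophoblast count of 5 dropped to 2 without either miR-294 replicate, and with quantile normalization 3 trophoblast genes rose and 4 fell. The neuroectoderm count of 4 dropped to 2 without miR-294 replicate 1, and the mesoderm genes that fell were 1 without any single library other than siMbnl1/2 replicate 2. Tfap2c, which encodes a factor of trophoblast and germ cells, stood at 9.04 and 9.05 FPKM with miR-294 and 22.6 and 37.6 with siMbnl1/2 (1.59 ± 0.20, adjusted p = 0.000497), and the adhesion gene Ncam1 at 2.53 and 2.51 FPKM with miR-294 and 7.13 and 9.65 with siMbnl1/2 (1.403 ± 0.14).

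Among the signalling lists, that of FGF and ERK genes leaned to lower levels and that of the Hippo pathway to higher ones. The BMP, Wnt and Nodal lists lay nearer the shares over all genes, 33.1% higher and 21.1% lower. Their counts are no result about these pathways. Of 18 FGF ligands and feedback genes of the ERK cascade, 10 fell and 3 rose (median -0.40). The ligand genes Fgf17 and Fgf15 were at 10.9 and 10.8 FPKM with miR-294 and 1.43 and 1.02 with siMbnl1/2 (-2.42 ± 0.12, adjusted p = 2.29e-05) and at 7.33 and 7.77 FPKM with miR-294 and 1.22 and 0.836 with siMbnl1/2 (-2.08 ± 0.14, adjusted p = 5.07e-05). The feedback inhibitor gene Spry4 was at 52.1 and 55.1 FPKM with miR-294 and 13.6 and 10.6 with siMbnl1/2 (-2.07 ± 0.12, adjusted p = 3.31e-05), and the ETS factor gene Etv4 at 76.9 and 74.5 FPKM with miR-294 and 18.3 and 19.2 with siMbnl1/2 (-1.96 ± 0.076). Spry2, Dusp6 and Dusp4, further inhibitors of the cascade, differed by -1.500, -1.18 and -1.17, whereas Etv5, Fgfr1 and Ier3 rose. Bmp4, a ligand of the BMP pathway, was at 10.7 and 9.84 FPKM with miR-294 and 0.987 and 0.956 with siMbnl1/2 (-2.51 ± 0.090, adjusted p = 9.43e-06), with 27.3 and 27.4 FPKM in WT and 0.808 and 0.73999 in mock KO. Receptor genes of the same pathway rose, Acvr1 by 0.93 ± 0.13 and Bmpr2 by 0.93 ± 0.11, and in the BMP list 6 rose and 2 fell of 14. Among the Wnt genes Lef1 and Axin2, a feedback inhibitor at 7.17 and 6.99 FPKM with miR-294 and 2.31 and 1.23 with siMbnl1/2 (-1.57 ± 0.19, adjusted p = 0.0004704), fell, and Tcf7l2, a relative of Lef1, rose (1.18 ± 0.10, adjusted p = 0.000102), with 7 up and 4 down of 17. Nodal pathway genes rose in 9 of 21 cases and fell in 4. The ligand gene Nodal differed by -0.27 ± 0.077. In the Hippo pathway, 13 of 21 genes rose and 2 fell, with Wwc2 at 6.298 and 6.25 FPKM with miR-294 and 13.6 and 14.8 with siMbnl1/2 (1.06 ± 0.080) and Tead4 at 12.2 and 10.5 FPKM with miR-294 and 22.1 and 29.5 with siMbnl1/2 (1.11 ± 0.13).

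**Figure D3:**
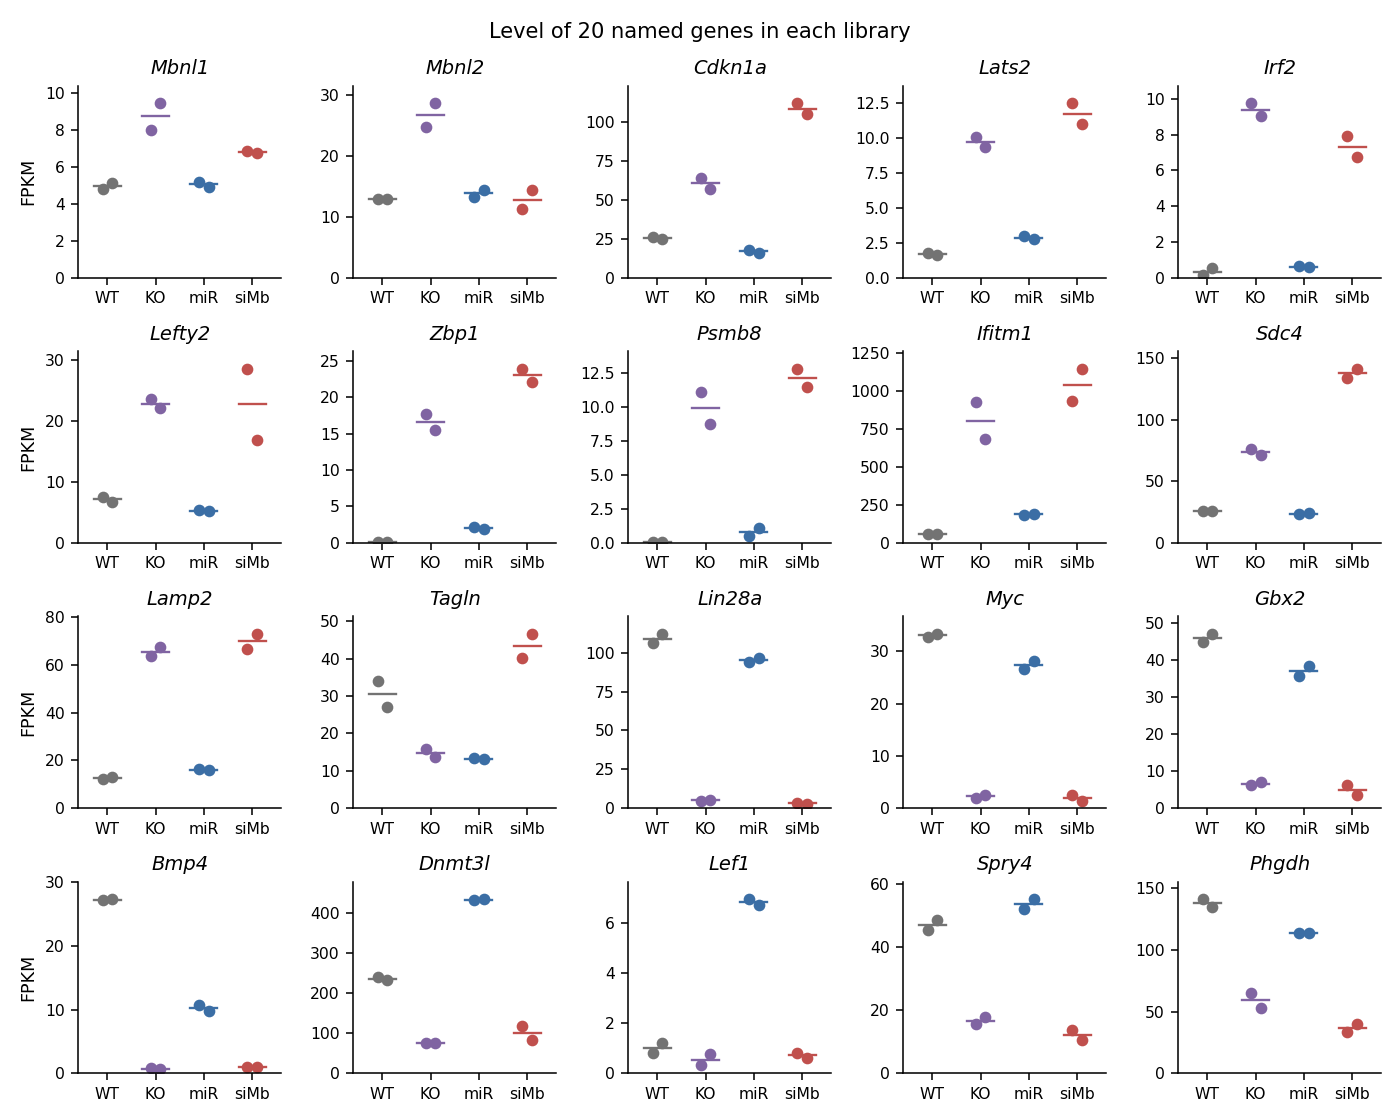
FPKM of 20 named genes in each library (points) with the mean of each pair (line), for WT, mock-transfected Dgcr8 KO (KO), miR-294 (miR) and siMbnl1/2 (siMb), on linear axes that start at 0. Cdkn1a and Sdc4 are highest with siMbnl1/2, Lin28a and Myc are high in WT and with miR-294, and Lef1 and Dnmt3l are highest with miR-294.

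Genes of DNA methylation and imprinting gave large differences in both directions. The de novo methyltransferase genes were lower with siMbnl1/2. Dnmt3l, which encodes their cofactor, was at 432 and 435 FPKM with miR-294 and 119 and 84.4 with siMbnl1/2 (-2.102 ± 0.14, adjusted p = 4.23e-05) and Dnmt3a at 54.1 and 55.1 FPKM with miR-294 and 11.95 and 17.03 with siMbnl1/2 (-1.86 ± 0.18, adjusted p = 0.000164), with mock KO cells at 75.1 and 75.2 and at 26.3 and 19.01 FPKM. The maintenance enzyme gene Dnmt1 differed by 0.13 ± 0.10 (adjusted p = 0.304), and the demethylase gene Tet3 rose by 0.94 ± 0.11. Of the 16 tested germline genes that DNA methylation is known to silence, 6 rose and 5 fell. The X-linked homeobox genes Rhox5 and Rhox9 moved in opposite directions, Rhox5 at 73.8 and 75.8 FPKM with miR-294 and 10.5 and 24.6 with siMbnl1/2 (-2.14 ± 0.35, adjusted p = 0.00307) and Rhox9 at 7.32 and 7.23 FPKM with miR-294 and 24.4 and 28.1 with siMbnl1/2 (1.72 ± 0.088, adjusted p = 2.41e-05). Among imprinted genes, 10 rose and 8 fell of 23. Without miR-294 replicate 2, 6 of them rose and 7 fell. Phlda2, a restrainer of placental growth, was at 62.1 and 62.8 FPKM with miR-294 and 12.05 and 9.49 with siMbnl1/2 (-2.44 ± 0.15, adjusted p = 3.97e-05) and the adaptor gene Grb10 at 93.1 and 95.4 FPKM with miR-294 and 27.1 and 26.7 with siMbnl1/2 (-1.77 ± 0.058), whereas the zinc finger gene Plagl1 was at 5.09 and 4.63 FPKM with miR-294 and 24.8 and 23.96 with siMbnl1/2 (2.12 ± 0.082, adjusted p = 9.83e-06). Polycomb and histone demethylase genes were split 8 up and 9 down of 22: Kdm2b, which brings a Polycomb complex to CpG islands, fell (-1.15 ± 0.093, adjusted p = 8.27e-05), and the Polycomb reader gene Cbx8 rose (1.06 ± 0.19).

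Genes of ribosome production and of amino acid supply were mostly lower with siMbnl1/2. Nucleolar ribosome biogenesis genes fell in 34 of 35 cases and rose in none (median -0.70). Nolc1, a nucleolar phosphoprotein gene, was at 107 and 106 FPKM with miR-294 and 47.1 and 46.3 with siMbnl1/2 (-1.17 ± 0.060, adjusted p = 2.39e-05), and Heatr1 and Nhp2 differed by -1.14 ± 0.10 and -1.12 ± 0.072. Aminoacyl-tRNA synthetase genes, which charge tRNAs, fell in 19 of 20 cases (median -0.73). The asparagine enzyme gene Nars stood at 298 and 304 FPKM with miR-294 and 116 and 112 with siMbnl1/2 (-1.39 ± 0.055, adjusted p = 9.83e-06), and Dars, of the aspartate enzyme, was the one not called (0.13 ± 0.070). Genes linked to the stress factor Atf4 and to amino acid supply, 1 list, fell in 16 of 19 cases (median -0.89), the lowest median of the 53 lists. Chac1, a glutathione-degrading enzyme gene, was at 27.7 and 28.2 FPKM with miR-294 and 6.01 and 6.79 with siMbnl1/2 (-1.97 ± 0.10, adjusted p = 2.43e-05), the amino acid transporter gene Slc7a3 at 118 and 119.8 FPKM with miR-294 and 44.99 and 38.3 with siMbnl1/2 (-1.49 ± 0.082), and Atf4 itself at 261 and 264 FPKM with miR-294 and 134 and 115 with siMbnl1/2 (-1.07 ± 0.077, adjusted p = 5.61e-05). Serine and one-carbon enzyme genes fell in 11 of 16 cases and rose in none. Phgdh, Psat1 and Psph, the enzymes of serine synthesis, differed by -1.61 ± 0.11, -1.32 ± 0.054 and -1.396 ± 0.10, and Phgdh was at 114 and 114 FPKM with miR-294 and 33.7 and 39.8 with siMbnl1/2, with 65.1 and 52.8 in mock KO. Chac1 was at 14.4 and 12.7 FPKM in WT and 8.55 and 7.37 in mock KO, and Nars at 214 and 209 in WT and 147 and 152 in mock KO. For Chac1, Nars, Slc7a3, Psat1 and Psph the miR-294 libraries were thus above WT as well as above mock KO. For Phgdh, Nolc1, Heatr1 and Nhp2 they lay between WT and mock KO. In these 4 lists the direction was the same with median-of-ratios scaling and with quantile normalization.

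**Figure D4:**
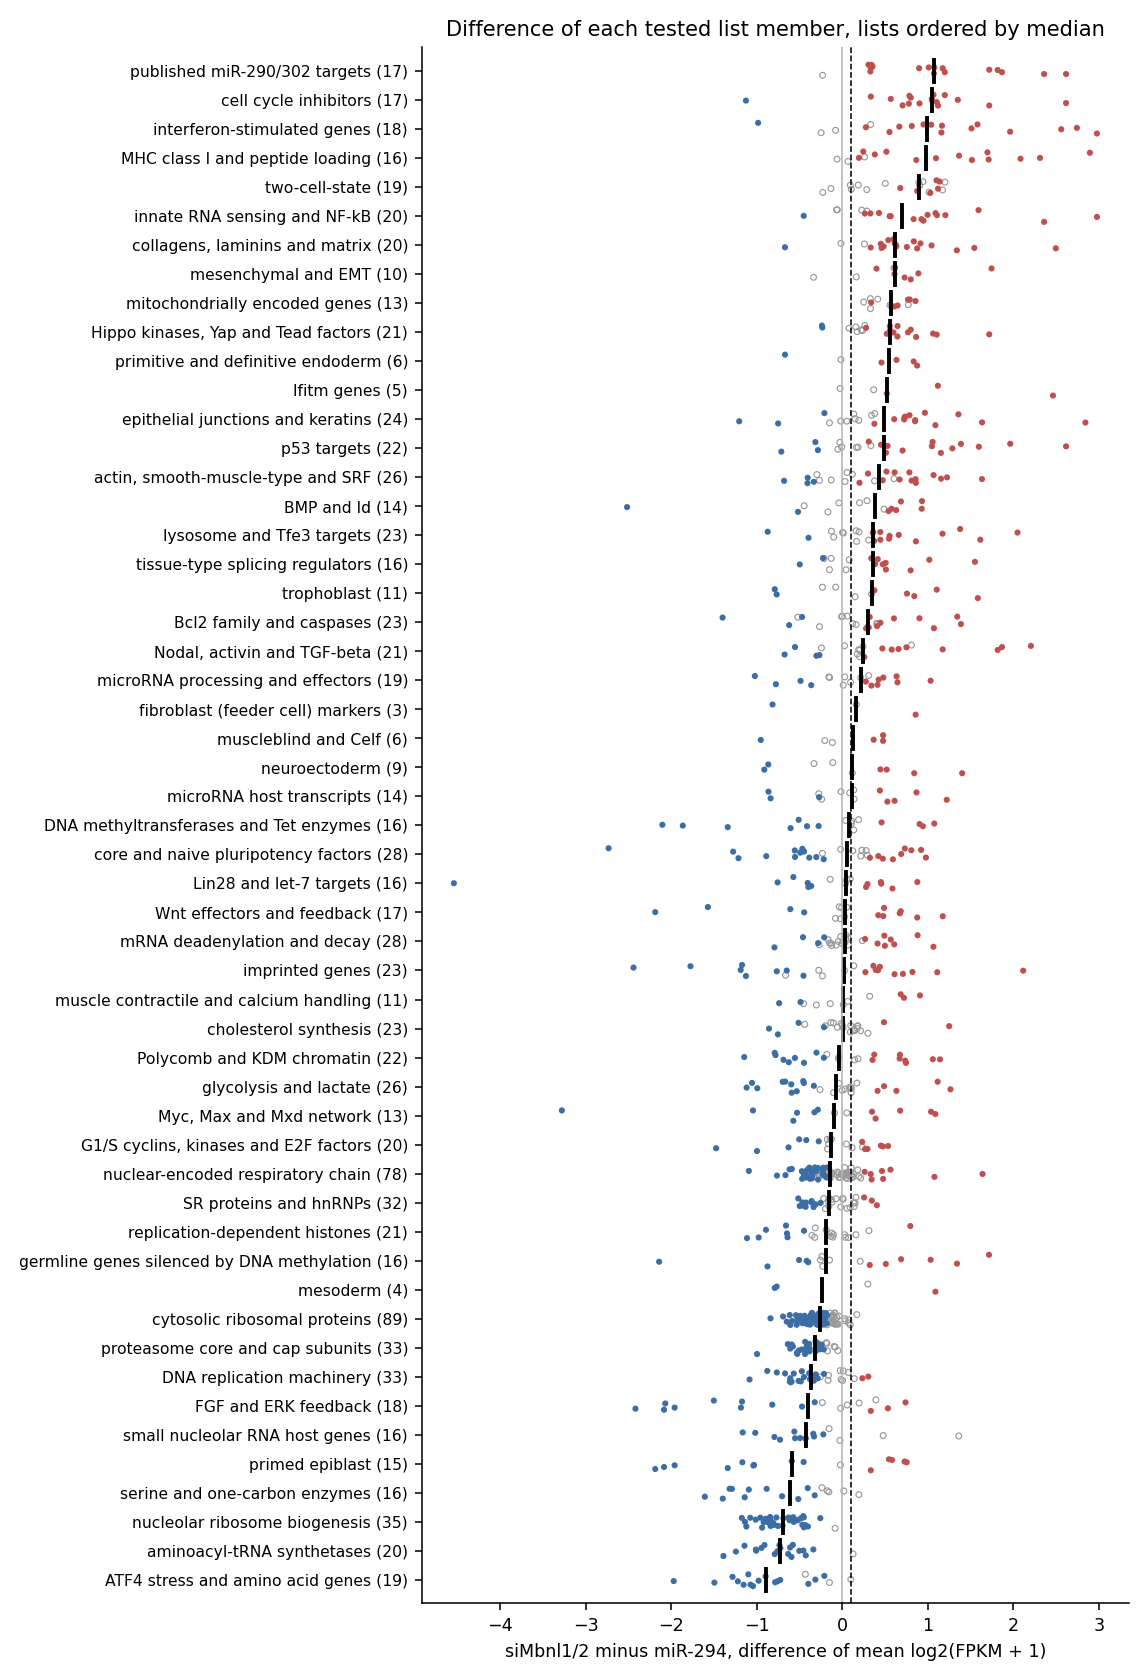
Difference of siMbnl1/2 minus miR-294 (horizontal) for every tested member (points) of the 53 gene lists (rows, with the number tested in parentheses), ordered by their median (black bar). Filled points passed the test, open points did not, and the dashed line is the median of all genes, 0.10. Published targets of the miR-290 family have the highest median, 1.07, and ATF4 stress and amino acid genes the lowest, -0.89.

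The other housekeeping lists differed in direction, and several depended on scaling. Proteasome genes fell in 27 of 33 cases (median -0.31), with Psmb6, a catalytic subunit gene, at 309 and 324 FPKM with miR-294 and 145 and 172 with siMbnl1/2 (-0.995 ± 0.10). The count was 16 without miR-294 replicate 2 and 14 with quantile normalization. Cytosolic ribosomal protein genes fell in 56 of 89 cases and rose in none (median -0.26), but with quantile normalization 26 fell and 9 rose, and without miR-294 replicate 1 or replicate 2, 34 and 29 fell. Many ribosomal protein genes have near-identical copies among which reads may be split. The host genes of small nucleolar RNAs fell in 12 of 16 cases, or in 6 without miR-294 replicate 2. Nuclear genes of the respiratory chain fell in 31 and rose in 8 of 78 cases, and with quantile normalization the counts turned to 12 and 19. Without miR-294 replicate 1 or replicate 2, 14 and 12 of them fell. Cox7a1, a subunit isoform of muscle-type tissue, stood out at 13.1 and 12.4 FPKM with miR-294 and 38.5 and 45.6 with siMbnl1/2 (1.64 ± 0.10, adjusted p = 3.82e-05), above mock KO at 22.04 and 19.5. Transcripts of the mitochondrial genome were higher in 6 of 13 cases and lower in none, with mt-Nd5 at 801 and 867 FPKM with miR-294 and 1512 and 1375 with siMbnl1/2 (0.79 ± 0.11, adjusted p = 0.000948), and the count dropped to 3 with median-of-ratios scaling, without miR-294 replicate 1 and without siMbnl1/2 replicate 1. Glycolysis genes fell in 11 and rose in 5 of 26 cases. The muscle-type pyruvate kinase gene Pkm differed by -1.05 ± 0.079 and the lactate exporter gene Slc16a3 by -1.12 ± 0.10, and in the other direction Hk1, a hexokinase gene, by 1.27 ± 0.17 and Pdk4, a brake on pyruvate oxidation with 1 seed match, by 1.12 ± 0.16. Cholesterol synthesis genes were mostly not called (2 up and 4 down of 23).

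Genes of the cell surface, matrix and cytoskeleton were mostly higher with siMbnl1/2. Matrix and proteoglycan genes rose in 17 of 20 cases and fell in 1 (median 0.62). Sdc4, a transmembrane heparan sulfate proteoglycan gene, stood at 23.1 and 24.1 FPKM with miR-294 and 134 and 142 with siMbnl1/2 (2.497 ± 0.066, adjusted p = 2.53e-06), above mock KO at 76.4 and 71.8 and WT at 25.9 and 25.7. The laminin gene Lamb2 was at 11.4 and 10.03 FPKM with miR-294 and 26.6 and 41.1 with siMbnl1/2 (1.54 ± 0.18) and the glypican gene Gpc3 at 25.99 and 25.4 FPKM with miR-294 and 58.4 and 75.99 with siMbnl1/2 (1.34 ± 0.12), whereas Lama1 fell (-0.67 ± 0.10, adjusted p = 0.00101). Epithelial junction genes rose in 13 of 24 cases and fell in 3, and mesenchymal genes rose in 7 of 10 and fell in none. Msln, which encodes the surface protein mesothelin, was at 9.19 and 9.12 FPKM with miR-294 and 76.3 and 67.7 with siMbnl1/2 (2.84 ± 0.11, adjusted p = 9.83e-06), the desmosome gene Dsp at 3.58 and 3.38 FPKM with miR-294 and 12.8 and 13.03 with siMbnl1/2 (1.64 ± 0.10) and the integrin gene Itgb3 at 0.9601 and 0.989 FPKM with miR-294 and 4.17 and 7.496 with siMbnl1/2 (1.75 ± 0.22). Cdh1 and Vim, the usual markers of the epithelial and mesenchymal state, both rose (0.74 ± 0.062 and 0.89 ± 0.12). Actin-linked genes rose in 14 of 26 cases and fell in 4. Tagln, a smooth-muscle-type actin-binding protein gene, was at 13.4 and 13.1 FPKM with miR-294 and 40.3 and 46.7 with siMbnl1/2 (1.63 ± 0.13, adjusted p = 7.11e-05), and Myl9, a myosin light chain gene, at 4.26 and 4.36 FPKM with miR-294 and 11.3 and 11.5 with siMbnl1/2 (1.23 ± 0.16). For both, mock KO cells (15.8 and 13.8 FPKM for Tagln, 6.32 and 4.304 for Myl9) lay close to the miR-294 cells, and the siMbnl1/2 libraries stood above the other 2 groups of KO cells. Lysosome genes rose in 13 of 23 cases and fell in 2 (median 0.36). The lysosomal membrane gene Lamp2 was at 16.3 and 15.9 FPKM with miR-294 and 66.6 and 73.004 with siMbnl1/2 (2.05 ± 0.075, adjusted p = 9.83e-06), with 63.9 and 67.3 in mock KO, and the progranulin gene Grn at 29.8 and 28.03 FPKM with miR-294 and 80.3 and 102 with siMbnl1/2 (1.62 ± 0.14). The fallen members were Ctsl and Tfe3, the latter a transcription factor of this programme (-0.87 ± 0.060, adjusted p = 5.04e-05).

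Regulators of splicing and of microRNA function differed among themselves. In the list of tissue-type splicing regulators 9 of 16 rose and 2 fell. Elavl2, a neuronal-type RNA-binding protein gene with 2 seed matches, was at 4.81 and 4.86 FPKM with miR-294 and 16.9 and 15.4 with siMbnl1/2 (1.55 ± 0.089, adjusted p = 3.31e-05), and Esrp2, of an epithelial splicing factor, at 1.75 and 1.96 FPKM with miR-294 and 5.48 and 4.15 with siMbnl1/2 (1.02 ± 0.15, adjusted p = 0.000924). Ptbp1, an exon repressor gene, fell by 0.50 and its relative Ptbp2 rose by 0.51. Celf4, of the family that acts against muscleblind proteins at some exons, was at 3.11 and 3.51 FPKM with miR-294 and 1.33 and 1.13 with siMbnl1/2 (-0.95 ± 0.13, adjusted p = 0.000825). SR proteins and hnRNPs, the general splicing factors, fell in 11 and rose in 3 of 32 cases, a lean that turned with quantile normalization (4 and 9) and deepened with median-of-ratios scaling (17 and 1). Without miR-294 replicate 2, 7 fell and none rose. The microRNA pathway rose in 8 of 19 cases and fell in 4, with quantile normalization 4 and 4. The Argonaute gene Ago1 was at 16.1 and 15.4 FPKM with miR-294 and 32.1 and 34.6 with siMbnl1/2 (1.03 ± 0.079, adjusted p = 6.66e-05), and the Dicer partner gene Tarbp2 at 56.1 and 54.7 FPKM with miR-294 and 27.7 and 25.9 with siMbnl1/2 (-1.02 ± 0.089, adjusted p = 0.000106). Host transcripts of microRNAs rose in 5 and fell in 3 of 14 cases, and genes of muscle contraction and calcium handling in 3 and 2 of 11. Deadenylation and decay genes were mostly not called (8 up, 4 down of 28), and Pabpc1, the cytoplasmic poly(A)-binding protein gene, fell (-0.79 ± 0.051, adjusted p = 4.23e-05).

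The genes of the 2-cell-like state, a rare cell state in these cultures, had a high median (0.90) with few calls, 6 of 19. The value rested on a single library: Zscan4b was at 2.22 and 2.73 FPKM with miR-294 and 11.1 and 3.67 with siMbnl1/2, and Tcstv1 at 3.38 and 3.84 FPKM with miR-294 and 15.2 and 5.05 with siMbnl1/2. In both genes siMbnl1/2 replicate 1 was the high library and replicate 2 lay near the miR-294 pair. Without siMbnl1/2 replicate 2, 17 of the 19 rose, and without siMbnl1/2 replicate 1, 6 rose and 4 fell. No gene of the list was called with quantile normalization, without either miR-294 library, without either Dgcr8 KO library, which enter through the shared spread, in a fit of the 4 libraries alone or with no filter on low values, and 1 was called without either WT library. In the other direction, 10 were called higher with groups weighted by their spread. With no variance trend 3 were called higher, and with median-of-ratios scaling 1 higher and 1 lower. Near-identical copies of these genes may also share reads.

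Some of the largest single differences lay outside the lists. Calca, which encodes calcitonin and its related peptide, was at 48.7 and 47.96 FPKM with miR-294 and 2.03 and 1.66 with siMbnl1/2 (-4.12 ± 0.10, adjusted p = 1.91e-06), and 2.68 and 2.19 in mock KO. The trypsin inhibitor gene Spink1 was at 12.1 and 10.9 FPKM with miR-294 and 0.421 and 0 with siMbnl1/2 (-3.39 ± 0.17, adjusted p = 2.31e-05), with replicate 2 listed at 0. Eras, a Ras gene of embryonic stem cells, was at 32.4 and 31.1 FPKM with miR-294 and 5.44 and 4.53 with siMbnl1/2 (-2.46 ± 0.093, adjusted p = 9.83e-06). The zinc finger gene Zfp423 was at 25.9 and 34.1 FPKM with miR-294 and 3.59 and 5.59 with siMbnl1/2 (-2.48 ± 0.20), the retinoic acid receptor gene Rarg at 133 and 130.3 FPKM with miR-294 and 34.2 and 29.7 with siMbnl1/2 (-2.01 ± 0.080), and the uridine phosphorylase gene Upp1 at 213 and 219.6 FPKM with miR-294 and 58.9 and 57.9 with siMbnl1/2 (-1.87 ± 0.076). In each of these the siMbnl1/2 libraries lay below both miR-294 libraries. On the other side were Ttll6, of a tubulin-modifying enzyme, at 2.28 and 1.96 FPKM with miR-294 and 16.5 and 22.1 with siMbnl1/2 (2.69 ± 0.15, adjusted p = 2.99e-05), Trim47 at 1.24 and 1.26 FPKM with miR-294 and 12.9 and 13.1 with siMbnl1/2 (2.64 ± 0.16), and Cd109, with 1 seed match, at 0.605 and 0.602 FPKM with miR-294 and 7.35 and 9.399 with siMbnl1/2 (2.54 ± 0.13). Cd109 was higher with siMbnl1/2 than in mock KO cells (4.62 and 4.65 FPKM).

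The difference between Dgcr8 KO and WT cells uses the other 4 libraries, and it was set beside that of siMbnl1/2 and miR-294 for every gene. Across the 12811 genes, which are not independent replicates and share 1 table and scaling, the differences correlated at a Pearson r of 0.65 and a Spearman rho of 0.73, and 9988 genes (78.0%) had the same sign. Among the 6944 called genes r was 0.79 and 89.2% had the same sign. Of the 839 genes at least 2-fold higher with siMbnl1/2, 810 were higher in KO than in WT, and of the 285 at least 2-fold lower, 256 were lower. Other genes did not share the pattern, such as Tagln, named after its values were seen, which was higher in WT (34.2 and 27.1 FPKM) than in KO and higher with siMbnl1/2 than with miR-294. By number of seed matches the median of KO minus WT was -0.023 with none, 0.21 with 1 and 0.32 with 2 or more. KO and WT columns carry different line names, so this difference may also hold that between lines.

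**Figure D5:**
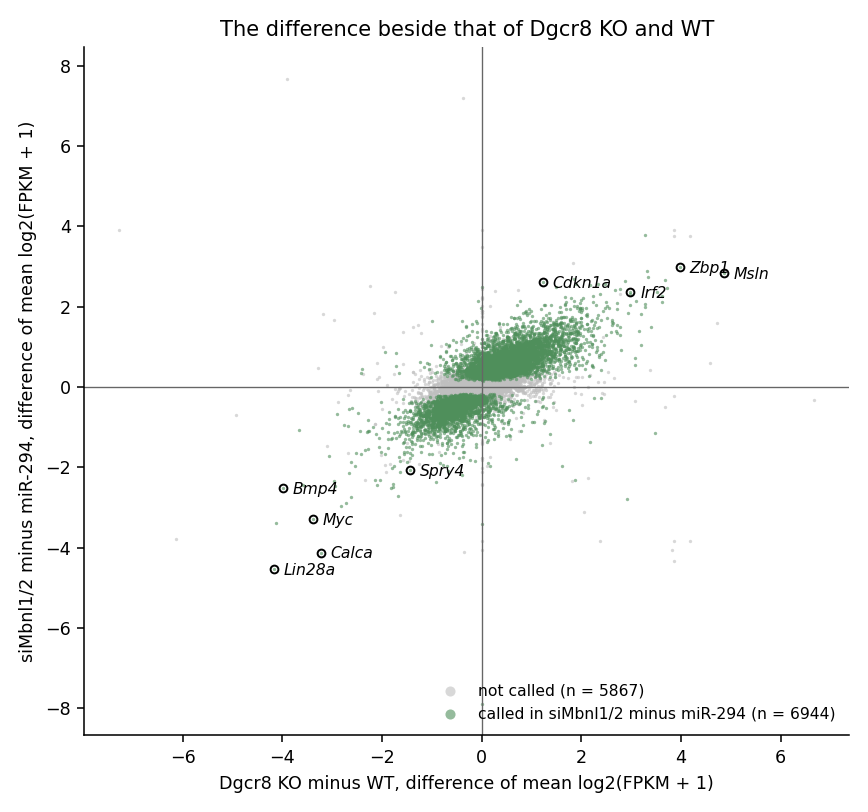
Difference of siMbnl1/2 minus miR-294 (vertical) against Dgcr8 KO minus WT (horizontal) for each gene, with called genes in green. Most called genes lie in the areas where both differences have the same sign (89.2%), with Lin28a, Myc, Calca and Bmp4 at the lower left and Irf2, Zbp1 and Msln at the upper right.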

How the data were processed

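RNA levels were deposited as 1 table of FPKM per gene entry and library. Per the submitters' processing notes, STAR 2.5.0, Cufflinks 2.2.1 and the build mm10 were used; the gene annotation release is not given in the sources used here, and sample labels name polyA RNA where the series text names total RNA. FPKM scales to the library, so abundant transcripts that gain lower all others, and depth is unknown. No count test could be made. Values were analysed as log2(FPKM + 1) for genes with a mean of at least 1 FPKM over the 4 libraries compared, with limma 3.58.1 (R 4.3.3, statmod 1.5.0) on 4 group means of all 8 libraries, which share an estimate of the spread that follows abundance and is robust. Calls are at a two-sided Benjamini-Hochberg adjusted p under 0.05 over 12811 genes. The script was tested on simulated data. Summaries used Python 3.11.15 and pandas 2.3.3.

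The members, the 53 gene lists and the rule for naming genes were chosen with earlier results of these data known. The rule takes Mbnl1 to Mbnl3 and Dgcr8, the 12 largest increases and decreases with groups that do not overlap, the 3 largest each above a mean of 50 FPKM, and up to 3 called members per list; predicted genes, small RNA genes and pseudogenes are left out of the largest changes. Further list members were named after their values were seen, and some genes that the rule or a list holds are not reported here. Where 26 entries share a symbol, the entry with the highest mean was used in lists. 3′ UTRs came from GENCODE M21, whose coordinates equal those of the file for 99.9% of 9971 tested entries with the same identifier version. microRNA sequences came from RefSeq. Alternatives were other pseudocounts, filters, scalings, spread models, a replicate block and leaving out each library. The labels give no batch or date.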

Additional observations from a re-analysis of the deposited data

How the results depend on the processing

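The number of genes called ranged from 4828 to 7284 over all alternatives, and 4780 of the 4828 were among the 6944. Values moved as follows. With a pseudocount of 0.1, 1324 genes were at least 2-fold higher and 439 at least 2-fold lower. With a mean of at least 5 FPKM, 558 were at least 2-fold higher, and called higher counts fell to 8, 8 and 9 for interferon-stimulated, MHC class I and innate sensing genes and to 3 for mesenchymal genes, since fewer were tested, and the MHC class I median to 0.45. With quantile normalization 430 were at least 2-fold lower. Leaving out a library gave between 1768 and 2770 lower calls, an r with KO minus WT between 0.59 and 0.65, and a median excess of genes with a seed match over those without of 0.18 to 0.20 (1 or more) and 0.23 to 0.26 (2 or more). That excess was 0.19 and 0.23 as reported, 0.21 and 0.28 with a mean of at least 5 FPKM, and 0.17 and 0.19 with quantile normalization. The causes were not tested beyond these settings.

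With the replicate number as a block 6361 genes were called, 6321 of them as before. Replicate differences of the groups compared correlated at 0.0046, and of the other pairs of groups at between -0.050 and 0.22 (Dgcr8 KO with WT), so not every pair exceeded 0.1 and the numbers were not taken to pair the samples. Medians of the pluripotency, neuroectoderm, DNA methyltransferase, Lin28, Wnt, imprinted, cholesterol, decay, muscle and fibroblast lists changed sign with a scaling, so no direction is given for them. With quantile normalization the median also changed sign for SR proteins and hnRNPs (-0.15 to 0.080) and for the nuclear respiratory chain (-0.14 to 0.028). The direction of these lists thus depends on the scaling. FPKM without counts limits what can be said of genes near 1 FPKM.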
